A study of Oryza sativa Japonica Group with 17 samples.

Results

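The 9 genes described here encode WRKY transcription factors of rice that are known from work on disease and insect resistance. They were chosen by locus identifier and are WRKY13, WRKY24, WRKY28, WRKY45, WRKY53, WRKY62, WRKY70, WRKY71 and WRKY76, out of 55986 loci in the expression table. WRKY28, WRKY62, WRKY71 and WRKY76 form the repressor clade, and the other 5 were set against it. The comparison is between the osddm1a/1b mutant and Cr-DJ-1, its wild type, with 2 RNA-seq libraries each. Both are DongJin material, and leaves were taken from 12-day-old seedlings raised on Murashige & Skoog medium without hormones. DDM1 is a chromatin remodeller that plants need to keep heterochromatin methylated. The labels name the mutant osddm1a/1b in the title and osddm1b in the mutant field, and they do not say how the alleles were made. The rest of the 17 samples of the series (bisulfite, small RNA, histone mark and osdrm2 libraries) were not used for these genes.

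WRKY proteins bind the W-box, a short promoter element with the core TTGAC, and many WRKY genes carry W-boxes themselves, so the family regulates its own members. In rice leaves, fungal chitin is sensed by CEBiP and CERK1 at the cell surface, and the signal passes through a MAP kinase cascade to WRKY factors such as WRKY53. Salicylate acts through NH1, the rice relative of NPR1, and in parallel through WRKY45. The clade of WRKY28, WRKY62, WRKY71 and WRKY76 is known mostly for repressors that restrain these responses, among them the genes for diterpenoid phytoalexins, which are antimicrobial compounds.

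The authors' deposited table gives 1 line per locus with no value per library. Reads per library were recovered from it as the whole numbers that return the deposited mean, log2 change and standard error, and 1 solution was found for each of the 9 genes. Reads divided by a library's size factor are called normalized reads below. The size factors were 1.15 and 0.888 in osddm1a/1b and 1.10 and 0.891 in Cr-DJ-1, and the libraries are called deeper and shallower, since their repeat numbers are not in the table. Mean normalized counts in the authors' deposited table sum to 26085293 over all loci, which is about the number of reads in a library scaled to a size factor of 1. OsDDM1b (LOC_Os03g51230, paired with its name from general knowledge) had 68.4 and 65.3 normalized reads in osddm1a/1b, against 720 and 740 in Cr-DJ-1. OsDDM1a (LOC_Os09g27060) had 261 and 260 against 305 and 271. The table does not state its direction, and the sign was turned so that OsDDM1b is the lowered gene, as the order of names in the series' file list has it. Every "higher" and "lower" below rests on that reading.

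Among loci with recovered reads, the repeats of a genotype lay close together. Over sampled loci with recovered reads, the chi-square of the 2 repeats per degree of freedom was 1.31 in osddm1a/1b (1790 loci) and 1.35 in Cr-DJ-1 (1758 loci), where 1 is pure counting error. Both lay above counting error (chi-square test, p = 5.10e-18 and 1.91e-21). Loci whose repeats differ by more than 0.4 of their sum could not be recovered, so the spread over all loci may be larger. For the 9 WRKY genes, the higher library exceeded the lower by at most 1.22 times within a genotype. In 1 of 18 such pairs (WRKY45 in osddm1a/1b, exact binomial test, two-sided p = 0.0152) the reads differed by more than counting error at the 0.05 level. Nothing in the labels says that the repeats came from separate plants, so the p-values between genotypes may measure technical spread only. The leaf markers were abundant, with mean counts in the authors' deposited table of 3070 for CAB2R and 2135 for CAB1R, while the root iron transporter gene IRT1 stood at 11.1 and the root silicon efflux gene Lsi2 at 0.281. The root silicon channel gene Lsi1 stood at 486 in the authors' deposited table. The leaf markers moved in both directions, 2 higher and 2 lower. CAB2R (log2 change 1.62, SE 0.05) and CAB1R (1.23, SE 0.07) rose in the authors' deposited table, with summed normalized reads of 7674 and 7599 in osddm1a/1b against 2682 and 2866 in Cr-DJ-1. LOC_Os12g17600 (-0.17) and LOC_Os12g19470 (-0.60), the other leaf markers listed, fell by the authors' deposited table and had mean counts of 121360 and 41934 there. Summed over IRT1 and Lsi1, root markers had 498 and 499 normalized reads in osddm1a/1b and 488 and 505 in Cr-DJ-1. All 3 meristem genes of the KNOX class (OSH1, OSH15, OSH71) rose, with summed normalized reads of 180 and 159 in osddm1a/1b against 34.5 and 25.8 in Cr-DJ-1. The part of leaf and meristem markers in the WRKY changes was not tested. In leaf samples, a shift in the cells present and a shift in RNA per cell cannot be told apart.

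Most of the WRKY genes were higher in the mutant. At an adjusted p under 0.05 (the authors' deposited table, DESeq2's Wald test) 7 of the 9 rose and WRKY62 fell, while WRKY45 did not pass. Over all 29212 loci tested, 27.6% rose, 19.1% fell and 46.7% passed in either direction. Since all 9 had a mean normalized count of at least 200, the closer background is the 15549 loci of that depth, of which 27.2% rose, 29.0% fell and 56.2% passed either way. The median log2 change of the 9 genes was 1.14 in the authors' deposited table, against 0.05 over all loci tested and -0.03 at that depth. At least 2-fold rises were seen in 5 of the 9, and no member fell that far, whereas 11.7% of all loci tested rose and 2.93% fell at least 2-fold. These 2-fold shares were not computed for the 15549 loci of closer depth. Of those, 3.84% rose further than WRKY76, the least changed of the 5 (log2 change 1.14). The libraries of the genotypes did not overlap for 8 of the 9 genes, WRKY45 being the exception. Among 1805 sampled loci with recovered reads, 80.0% did not overlap (38.4% with osddm1a/1b higher and 41.6% with it lower). This background is not matched for depth, as the sampled loci had means from 10 to 2000, below those of WRKY53 and WRKY71. It also lacks loci whose repeats differ by more than 0.4 of their sum, which the search could not recover. Lack of overlap alone is thus common among such loci.

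**Figure D1:**
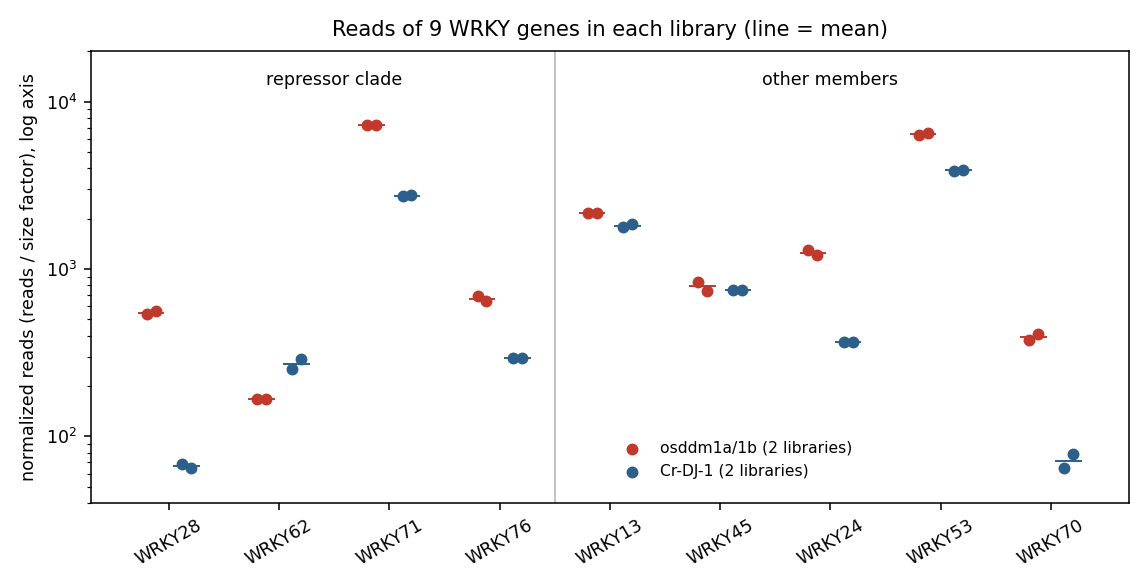
Normalized reads (reads divided by the size factor, log axis) of the 9 WRKY genes in each library, osddm1a/1b in red left of Cr-DJ-1 in blue, with a line at the mean of 2 libraries. WRKY62 is the gene whose mutant points lie below those of the wild type, and the points of WRKY45 overlap.

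In the repressor clade 3 genes rose and 1 fell, and none failed the test. WRKY28 (LOC_Os06g44010, chromosome 6), which encodes a repressor that lowers resistance to the blast fungus, changed most of all 9. It had 536 and 563 normalized reads in osddm1a/1b, against 68.0 and 65.1 in Cr-DJ-1. Each mutant library thus stood far above each wild-type library, with means of 550 ± 19.1 in osddm1a/1b and 66.6 ± 2.05 in Cr-DJ-1 (SD, n = 2 each) and a ratio of 8.26. The authors' deposited table gives a log2 change of 2.87 (SE 0.18, 95% Wald interval 2.52 to 3.21, adjusted p = 4.83e-58), a value moderated towards 0. Of the 15549 loci at a mean count of at least 200, 213 (1.37%) rose further.

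WRKY71 (LOC_Os02g08440, chromosome 2) is induced by chitin and was described as a repressor of gibberellin signalling in aleurone cells. It had 7243 and 7260 normalized reads in osddm1a/1b, against 2721 and 2751 in Cr-DJ-1. The repeats were nearly alike, and the genotypes lay 2.65-fold apart. Its log2 change in the authors' deposited table was 1.4 (SE 0.04, adjusted p = 2.78e-245), the smallest adjusted p among the 9. WRKY28 made up 6.89% and 7.20% of the reads of the pair in osddm1a/1b, against 2.44% and 2.31% in Cr-DJ-1. These shares restate the larger rise of WRKY28, as they come from the same reads as the ratios.

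WRKY76 (LOC_Os09g25060) and WRKY62 (LOC_Os09g25070) carry successive locus numbers on chromosome 9 and moved in opposite directions. WRKY76 encodes a repressor of blast resistance that also raises cold tolerance. It had 693 and 641 normalized reads in osddm1a/1b, against 296 and 295 in Cr-DJ-1. Its log2 change in the authors' deposited table was 1.14 (SE 0.13, adjusted p = 1.87e-18). WRKY62, also named XB10 for its binding to the immune receptor XA21, had 167 and 168 normalized reads in osddm1a/1b, against 253 and 288 in Cr-DJ-1. These values stand for 193 and 149 reads in osddm1a/1b, against 279 and 257 in Cr-DJ-1. The wild-type libraries were both above the mutant ones, by 1.62 times on average. The authors' deposited table puts its log2 change at -0.65 (SE 0.18, 95% Wald interval -1.0 to -0.30, adjusted p = 0.000921).

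Reads of the adjacent genes can be set against each other inside 1 library, where depth and scaling cancel. WRKY76 held 80.6% of the 993 reads of the pair in the deeper osddm1a/1b library (exact 95% binomial interval 78.0 to 83.0%) and 79.2% of 718 in the shallower one (76.1 to 82.2%). In Cr-DJ-1 it held 53.9% of 605 reads in the deeper library (49.8 to 57.9%) and 50.6% of 520 in the shallower one (46.2 to 55.0%). The intervals of the genotypes were far apart and cover counting error only. With 2 libraries against 2, an exact two-sided permutation test cannot go below 0.333, so no test of the share is given. The labels do not say how reads that match both genes were counted, and counts per locus do not separate transcripts of 1 gene.

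**Figure D2:**
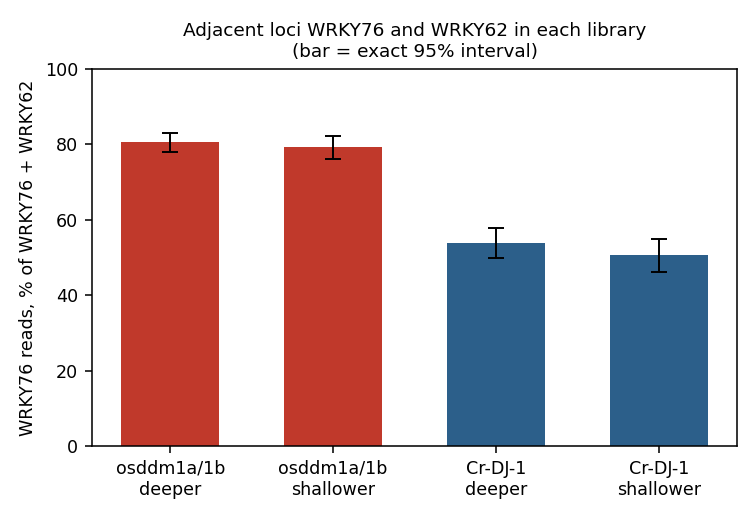
Share of WRKY76 in the reads of WRKY76 plus WRKY62 (percent) in each library, osddm1a/1b in red left of Cr-DJ-1 in blue, with exact 95% binomial intervals. The mutant bars stand at 80.6% and 79.2% and the wild-type bars at 53.9% and 50.6%.

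Of the 5 members outside the clade, 4 rose and WRKY45 did not pass. Their median log2 change was 0.72 in the authors' deposited table, against 1.27 for the 4 clade genes, and the ranges overlapped widely (0.07 to 2.30 outside the clade, -0.65 to 2.87 inside it). The changes thus did not separate the repressor clade from the other members.

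WRKY24, WRKY53 and WRKY70 are close relatives that all rose, by different amounts. WRKY70 (LOC_Os05g39720, chromosome 5), which favours defence over growth when stem borers attack, had 378 and 409 normalized reads in osddm1a/1b, against 64.4 and 78.6 in Cr-DJ-1. Its wild-type libraries were the least alike of the 18 pairs, yet the genotypes lay 5.51-fold apart. The log2 change in the authors' deposited table was 2.30 (SE 0.19, adjusted p = 3.13e-32). WRKY24 (LOC_Os01g61080, chromosome 1), known from aleurone cells as a repressor of gibberellin and abscisic acid signalling, had 1294 and 1208 normalized reads in osddm1a/1b, against 365 and 365 in Cr-DJ-1. Its log2 change in the authors' deposited table was 1.75 (SE 0.10, adjusted p = 3.03e-63).

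WRKY53 (LOC_Os05g27730, chromosome 5), an elicitor-induced activator and a target of the MAP kinase cascade, had 6351 and 6466 normalized reads in osddm1a/1b, against 3837 and 3924 in Cr-DJ-1. It therefore rose less than its relatives, 1.65-fold by the ratio of means, although its reads were the most precise of the 3. The authors' deposited table gives it a log2 change of 0.72 (SE 0.04, adjusted p = 9.57e-69). Inside single libraries, WRKY70 made up 5.62% and 5.95% of the reads of WRKY70 plus WRKY53 in osddm1a/1b, against 1.65% and 1.96% in Cr-DJ-1. WRKY24 likewise made up 16.9% and 15.7% of the reads of WRKY24 plus WRKY53 in osddm1a/1b, against 8.69% and 8.51% in Cr-DJ-1. These shares come from the same reads as the ratios and are not separate support. They compare genotypes and not the levels of the genes, since reads were not divided by gene length.

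WRKY13 and WRKY45, both known as positive regulators of resistance, changed least. WRKY13 (LOC_Os01g54600, chromosome 1), which acts between salicylate and jasmonate signalling, had 2151 and 2170 normalized reads in osddm1a/1b, against 1782 and 1859 in Cr-DJ-1. The libraries did not overlap, and the ratio of means was 1.19. Its log2 change in the authors' deposited table was 0.25 (SE 0.06, adjusted p = 0.000328), and 24.5% of the 15549 loci of that depth rose further. WRKY45 (LOC_Os05g25770, chromosome 5), the factor of the salicylate branch that benzothiadiazole induces, had 837 and 740 normalized reads in osddm1a/1b, against 748 and 754 in Cr-DJ-1. One mutant library lay above both wild-type libraries and the other below them. The authors' deposited table gives a log2 change of 0.07 (SE 0.10, adjusted p = 0.605) with a 95% Wald interval of -0.13 to 0.27.

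**Figure D3:**
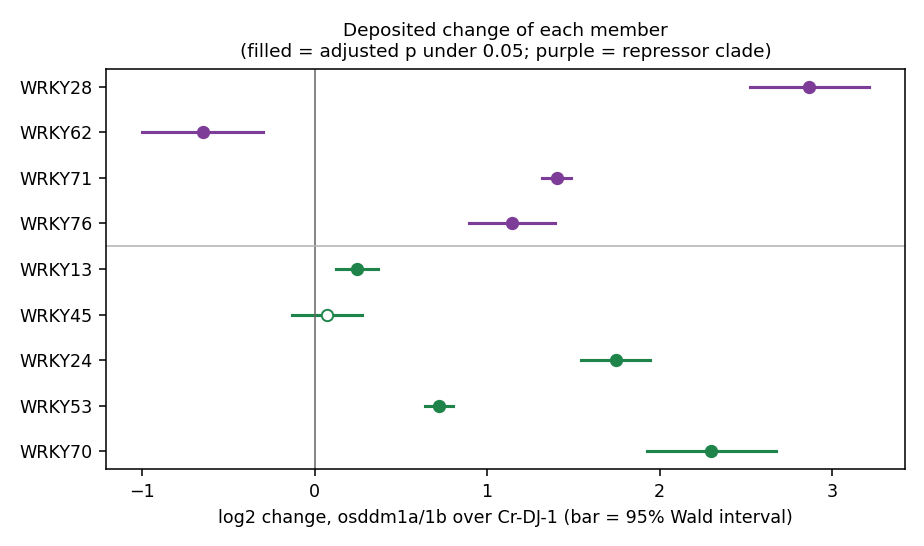
Log2 change (osddm1a/1b over Cr-DJ-1) of each gene in the authors' deposited table with its 95% Wald interval, the repressor clade in purple above the other members in green, filled where the adjusted p is under 0.05. WRKY28 lies highest at 2.87, WRKY62 lowest at -0.65, and the interval of WRKY45 spans 0.

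Ordered by log2 change, the genes ran WRKY28, WRKY70, WRKY24, WRKY71, WRKY76, WRKY53, WRKY13, WRKY45 and WRKY62. Neighbours in that order were compared by the difference of their deposited changes, with the standard errors combined as if the genes were independent. The difference between WRKY71 and WRKY76 was 0.26 (95% interval -0.001 to 0.52) and that between WRKY13 and WRKY45 was 0.18 (-0.06 to 0.41), and both intervals held 0. The other 6 neighbouring differences, from 0.34 to 0.72, had intervals above 0. Since the genes were sorted by the same values, every difference is positive by construction. The intervals allow neither for the sorting nor for the number of comparisons. Of the 15549 loci with a mean count of at least 200, 1.54% rose further than WRKY70, 2.05% than WRKY24, 2.66% than WRKY71, 3.84% than WRKY76 and 8.35% than WRKY53. The corresponding shares were 39.1% for WRKY45 and 94.1% for WRKY62, which places WRKY45 well inside the bulk of loci. Among those 6, the interval that came closest to 0 was that of WRKY28 over WRKY70 (0.57, 95% interval 0.06 to 1.08).

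Loci numbered near the WRKY genes rose and fell in shares close to those of all loci. By the authors' deposited table, 48 other loci lay within 3 places of a member, and 27 of them were tested. Of these, 8 rose, 6 fell and 13 failed the test, where 27.6% of all loci tested rose and 19.1% fell, while 9 loci had no adjusted p and 12 had no reads. All 6 neighbours of WRKY53 had no reads (4) or too low a mean for an adjusted p (2), although WRKY53 had the highest mean of the 9 genes. Around WRKY28, 0 neighbours rose, 3 fell and 1 failed the test. Its 2 direct neighbours had no adjusted p and could not be called. The direct neighbours of WRKY71 on both sides were higher, as LOC_Os02g08420 stood at 1.5 (SE 0.08) and LOC_Os02g08450 at 1.88 (SE 0.38) in the authors' deposited table. Around WRKY24, 2 neighbours rose and 1 fell, the last being the direct neighbour LOC_Os01g61070 at -1.43 (SE 0.36) by the authors' deposited table.

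**Figure D4:**
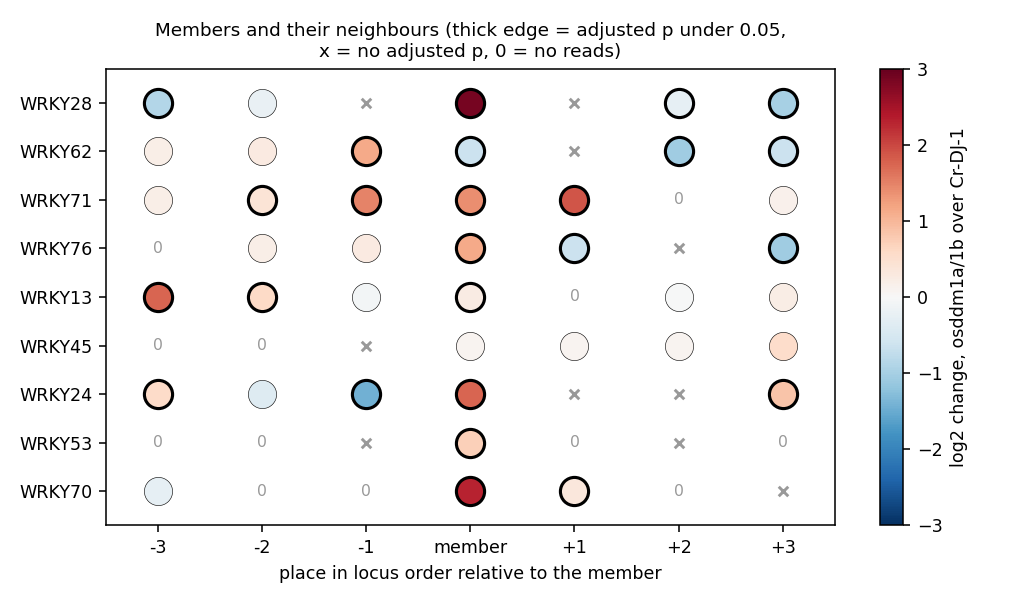
Log2 change (colour, osddm1a/1b over Cr-DJ-1) of each member and of the 3 loci before and after it in locus order, with a thick edge where the adjusted p is under 0.05, a cross where the table gives none and 0 where there were no reads. WRKY53 has no tested neighbour, and the direct neighbours of WRKY71 are higher in the mutant.

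Further WRKY genes rose more often than they fell. Of 45 further loci listed as WRKY genes from general knowledge, the authors' deposited table tested 42. Rises were called in 20 (47.6%), falls in 3 (7.14%) and neither in 19, where 27.6% of all loci tested rose and 19.1% fell. The median log2 change of the 42 was 0.39, below that of the 9 members. At least 2-fold rises were seen in 11 of the 42 and at least 2-fold falls in 0, against 11.7% and 2.93% of all loci tested. A mean count of at least 200 was reached by 18 of the 42, of which 11 rose and 3 fell. Over all loci of that depth, 27.2% rose and 29.0% fell. WRKY51, the only name of these found on its chromosome in the reference table, rose by 0.23 (SE 0.08, adjusted p = 0.0154) per the authors' deposited table. Among the others, given here by identifier, LOC_Os01g60640 had the largest log2 change, 2.18 (SE 0.13), in the authors' deposited table. It had 900 and 974 normalized reads in osddm1a/1b, against 194 and 202 in Cr-DJ-1. LOC_Os01g14440 (1.08, SE 0.09), LOC_Os09g16510 (0.90, SE 0.07) and LOC_Os05g46020 (1.56, SE 0.13) also rose in the authors' deposited table.

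Components upstream of the WRKY factors moved mostly upward. The authors' deposited table calls 6 rises and 0 falls among 9 receptor and MAP kinase genes, 3 failing the test, at a median log2 change of 0.27. All 9 had a mean count of at least 200, a depth at which 27.2% of loci rose and 29.0% fell. The MAP kinase gene MPK3 had 3081 and 3170 normalized reads in osddm1a/1b, against 768 and 867 in Cr-DJ-1. Its log2 change in the authors' deposited table was 1.92 (SE 0.07, adjusted p = 2.97e-159). The chitin receptor gene CEBiP rose by 1.19 (SE 0.06) there, whereas its partner CERK1 stood at 0.08 (SE 0.06, adjusted p = 0.299) per the authors' deposited table. LOC_Os02g54600 (0.92, SE 0.05) and LOC_Os04g52780 (0.80, SE 0.10) of the same list rose in the authors' deposited table.

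The salicylate list split around NH1. Of its 6 genes the authors' deposited table calls 4 higher and 1 lower, and 1 failed the test (median log2 change 0.42). All 6 had a mean count of at least 200, where 27.2% of loci rose and 29.0% fell. NH1 had 1114 and 1163 normalized reads in osddm1a/1b, against 1917 and 1920 in Cr-DJ-1. Its log2 change was -0.75 (SE 0.07) by the authors' deposited table. Its relatives NH2 (log2 change 0.52, SE 0.05) and NH3 (1.33, SE 0.05) are called higher in the authors' deposited table, and so is LOC_Os11g09010 (1.45, SE 0.07). NH1 was thus lower and WRKY45 did not pass the test, while 4 of the 6 listed salicylate genes rose.

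All 7 jasmonate genes passed in the authors' deposited table, 5 higher and 2 lower, and their median log2 change was 0.48. Each had a mean count of at least 200, a depth at which 56.2% of loci passed either way (27.2% higher, 29.0% lower). AOS1, for allene oxide synthase of jasmonate synthesis, had 3397 and 3218 normalized reads in osddm1a/1b, against 1249 and 1376 in Cr-DJ-1, and a log2 change of 1.33 (SE 0.06) in the authors' deposited table. JAR1, whose enzyme joins jasmonate to isoleucine, rose by 0.38 (SE 0.04) and LOC_Os09g26780 by 1.36 (SE 0.07), while LOC_Os08g39840 had -0.65 (SE 0.06), all from the authors' deposited table.

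Output genes of defence did not follow the upward pattern. None of 5 pathogenesis-related genes is called higher in the authors' deposited table, 2 are lower and 3 failed the test, and the median log2 change was -0.55. LOC_Os01g28450 had 3.46 and 4.5 normalized reads in osddm1a/1b, against 253 and 194 in Cr-DJ-1. By the authors' deposited table its log2 change was -4.19 (SE 0.31), and that of LOC_Os12g36850 was -0.93 (SE 0.20). PBZ1, the 1 name of this list found on its chromosome in the reference table, had -0.16 there (SE 0.12, adjusted p = 0.286) and did not pass. Of 10 diterpenoid phytoalexin genes, which overexpressed WRKY76 is known to lower, the authors' deposited table calls 0 higher and 5 lower. The other 5 failed the test, and the median log2 change was -0.63. Those that fell were CPS2, KSL7, CYP71Z7 and CYP76M8 of chromosome 2 and CPS4 of chromosome 4. KSL4, MAS, CYP99A2 and CYP99A3 of chromosome 4 all failed the test. CYP76M8 had a mean count of only 6.04 (adjusted p = 0.0459), and at an adjusted p under 0.01 the list held 4 falls. The part of WRKY76 in these changes was not tested. CYP71Z7 had 3.46 and 10.1 normalized reads in osddm1a/1b, against 69.8 and 64.0 in Cr-DJ-1. By the authors' deposited table the diterpene synthase genes CPS2, KSL7 and CPS4 had log2 changes of -2.07 (SE 0.36), -1.56 (SE 0.31) and -1.23 (SE 0.25). The lists are short and carry no test of their own. Over all loci tested, 27.6% rose and 19.1% fell, and at a mean count of at least 200 the shares were 27.2% and 29.0%. All genes of the receptor, salicylate and jasmonate lists were of that depth. The phytoalexin genes had means of 4.25 to 104, and no share was computed for loci of that depth alone.

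**Figure D5:**
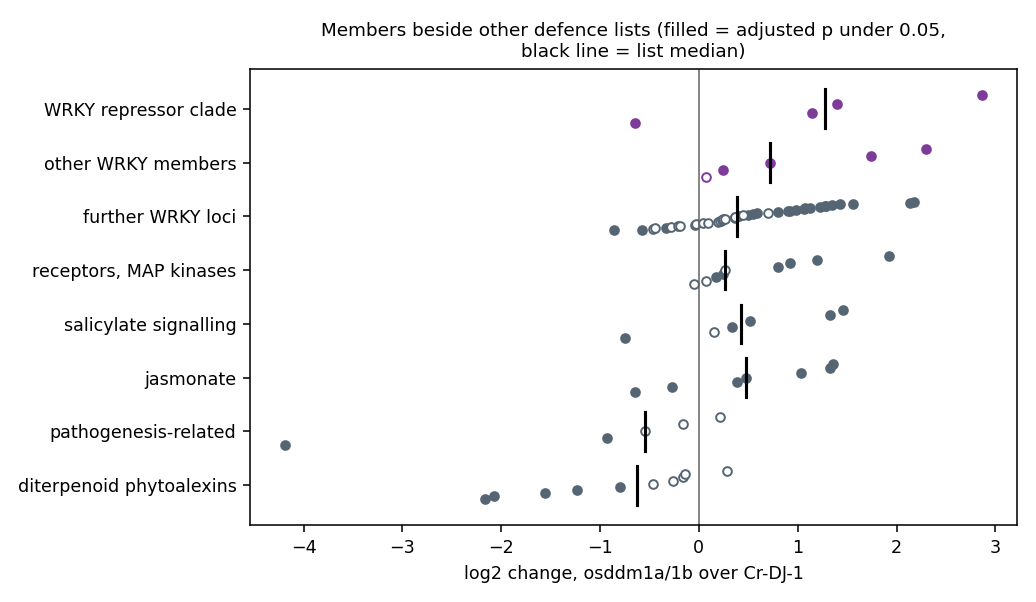
Log2 change (osddm1a/1b over Cr-DJ-1) of each tested gene by list, filled where the adjusted p is under 0.05, with the list median as a black line. The 2 WRKY member sets (purple) have medians of 1.27 and 0.72, and the pathogenesis-related and phytoalexin lists have medians of -0.55 and -0.63.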

How the data were processed

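Expression came from 1 table of results that the authors deposited with no header line, read here in DESeq2's column order. The deposited signal is the mean over 4 libraries of counts divided by size factors. The deposited log2 values are moderated fold changes. Their standard error and Wald score, the unadjusted p-value and its Benjamini-Hochberg adjusted form fill the other deposited columns. The submitters' processing notes name, among other tools, TopHat, HTSeq and DESeq2 with no roles. The library kit was stranded per the labels' protocols, but whether counting used the strand is not stated. No genome build is named, so no coordinates are printed and the histone mark and small RNA files were not used.

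The table holds no counts per library, so the authors' Wald test was read at an adjusted p under 0.05, as the design provided for that case. Size factors were read off the lowest means, which hold a single read. Whole reads were then searched (Python 3.11.15, numba 0.67.0) among quadruples matching the deposited mean to its last digit, with repeats differing by at most 0.4 of their sum. A quadruple was kept if a ridge negative binomial fit, with the dispersion set by the deposited standard error and a prior width of 0.763 on the log2 scale (2 times the largest standard error), returned the log2 change within 3e-07. For the 9 genes the largest difference was 6.7e-09. Of 2000 randomly sampled loci with means from 10 to 2000, 1805 (90.2%) had 1 solution, 194 none and 1 several. On data simulated with the same fit from means of this comparison under 2000, 60 of 60 loci came out right. This checks the search only, and cannot show whether the fit is the one the authors used. The means of WRKY53 and WRKY71 lie above that range.

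Members and lists were chosen with earlier results of these data known. The names of 4 members (WRKY24, WRKY62, WRKY71, WRKY76) stood on the right chromosome in the reference table (assembly ASM3414082v1), and those of the other 5 came with the choice of members. List names are printed only where that table bears them out, and OsDDM1a and OsDDM1b from general knowledge. Named genes are the members, both DDM1 loci, up to 4 genes per list with the smallest adjusted p among those passing, and direct neighbours changed at least 2-fold. CERK1, WRKY51, PBZ1, CYP76M8, KSL4, MAS, CYP99A2 and CYP99A3 were named after their values were seen. Markers are those of leaf, root and shoot meristem. Intervals of shares are exact (Clopper-Pearson) 95% intervals and cover counting error only. No sequences were used.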

Additional observations from a re-analysis of the deposited data

How the results depend on the processing

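Calls for the 9 WRKY genes were recomputed under 6 other settings and 5 chosen after seeing the data. With an adjusted p under 0.01, with Benjamini-Hochberg adjustment over all 41402 loci with a p-value or over the 25356 with a mean count of at least 10, and after centring on the median of all loci (a shift of 0.05), all 9 kept their call. With Bonferroni the calls of WRKY13 and WRKY62 were lost, which left 0 members lower. Asking for at least a 2-fold change left 5 members passing and 0 lower, because WRKY13, WRKY53 and WRKY62 changed less than that. Leaving out each library in turn, with the authors' dispersion held and the lone library assumed to vary like the others, kept 8 members passing in each case, 7 higher and 1 lower. WRKY62 then ranged from -0.72 to -0.55 and WRKY13 from 0.21 to 0.28. Their largest p in these negative binomial fits was 0.00944 and 0.00569, where the table's limit corresponds to an unadjusted p of 0.0233. WRKY45 ranged from -0.02 to 0.15 and did not pass in any. Without moderation the ratios of mean reads gave 3.05 for WRKY28 and 2.46 for WRKY70 on the log2 scale, and directions were kept for all 9. Keeping only the list names found on the same chromosome in the reference table left fewer genes. Rises then numbered 1 (and falls 0) among further WRKY loci, 2 among receptors and MAP kinases and 2 in the salicylate list. The jasmonate list then had 3 rises and 1 fall, and falls numbered 0 among pathogenesis-related genes. No paired analysis was possible because the table carries no repeat numbers. The alternative W-box motif and the promoter and protein comparison were not run, since no sequences were used. The lowest depth among members was 58 to 75 reads per Cr-DJ-1 library, for WRKY28 and WRKY70.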
